A study of Mus musculus with 12 samples.

Results

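A set of 30 genes of cholesterol and fatty acid synthesis was examined in mouse embryonic fibroblasts (MEFs) measured on whole-transcript arrays. They comprise 22 sterol genes and 8 fatty acid genes, taken by symbol from the platform annotation. For each gene the probe set with the highest mean over the 12 arrays was used. In all, 29 of the 30 were measured in this way, 21 sterol and 8 fatty acid genes, out of 19938 genes on the arrays, and Acat2 was not analysed here. All 29 were tested, and none had a mean below the lower quartile of the arrays.

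The MEFs came, per the labels, from OG2 mice, which carry a green fluorescent reporter driven by Oct4 sequences, crossed with 129/sv. Cells with SKO had received the reprogramming factors, taken here as Sox2, Klf4 and Oct4 since no label explains the abbreviation, together with a retrovirus for microRNA cluster C, microRNA cluster B or a blank control virus. Cells without SKO had received the cluster C, cluster B or blank virus only. All were infected as MEFs, kept in mouse embryonic stem cell medium and lysed at day 4 or day 8 after the first infection, and feeder cells were removed before extraction. With 2 states of SKO, 3 viruses and 2 days, there were 12 conditions, each with a single array. Titles of all arrays without SKO carry the tag Group2, so SKO and that grouping cannot be told apart, and a description shared by all 12 arrays names a passage and a day that differ from the day labels used here.

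Sterol synthesis starts from acetyl-CoA, passes through mevalonate and farnesyl diphosphate to squalene and lanosterol, and ends in cholesterol after a chain of reactions in the endoplasmic reticulum. Fatty acid synthesis uses the same acetyl-CoA, which is carboxylated, built into palmitate, then elongated and desaturated. Transcription of both sets of enzymes is known to be driven by the sterol regulatory element-binding proteins, encoded by Srebf1 and Srebf2, which stay in the endoplasmic reticulum under Insig proteins while sterols are plentiful. Dividing fibroblasts and stem cells need these lipids for new membranes.

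Deposited values are on the log2 scale, with array medians between 4.98 and 5.07, and the number of arrays limits their precision. Pou5f1, which encodes Oct4, was at least 11.60 on the 6 SKO arrays and at most 4.56 on the 6 arrays without SKO. The range of Klf4 was 8.63 to 8.91 on the SKO arrays, against 6.92 to 7.16 on the others. Sox2 was nearer between the arms, at 5.34 to 7.55 with SKO and 4.55 to 5.18 without. Differences are given as log2 differences with a standard error (SE) from a single limma model of the 12 arrays, whose error term is the disagreement of virus effects between days. The threshold was a limma p under 0.05 after Benjamini-Hochberg adjustment over the 19938 genes. Where 3 values follow each other for 1 group, they are its arrays with cluster C, cluster B and blank virus, in that order.

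Most sterol enzymes that differed were lower with SKO, and the exceptions were Ebp on both days and Fdft1 at day 8. At day 8, 5 of 21 sterol genes were lower with SKO (Nsdhl, Cyp51, Mvd, Mvk and Sc5d) and 4 were higher (Ebp, Fdft1, Srebf2 and Srebf1). Of all genes, 12.7% were lower and 13.4% were higher in that comparison. At day 4, 8 of 21 were lower (Cyp51, Fdps, Nsdhl, Hsd17b7, Hmgcs1, Sc5d, Mvd and Lss) and Ebp alone was higher, while 9.4% of all genes were lower and 9.52% were higher. Nsdhl, Cyp51, Mvd and Sc5d were lower, and Ebp was higher, on both days. The median difference over the 21 genes was -0.16 at day 8 and -0.28 at day 4, against -0.07 and -0.04 over all genes.

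Brighter genes passed more often than dim ones, so a closer background is the set of 7623 genes at least as bright as the dimmest member. In that set 15.4% were lower and 20.1% were higher with SKO at day 8, and 13.9% were lower and 14.7% were higher at day 4. The SKO and no SKO arrays did not overlap, all SKO values being lower, for 10 of 21 sterol genes at day 8 and for 11 of 21 at day 4. These are 47.6% and 52.4%, against 24.2% and 17.9% of all genes. All SKO values were higher for 5 of 21 at day 8 (23.8%, against 20.7% of all genes). At day 4 they were higher for 3 of 21 (14.3%, against 15.8%). Overlap was not counted among the 7623 brighter genes. Leaving out 1 array at a time gave 1 to 5 sterol genes lower at day 8 and 1 to 7 at day 4. The count was 1 at day 8 without the SKO array of cluster C or the no SKO array of cluster C or blank virus of that day. It was 1 at day 4 without the SKO array of cluster B or the no SKO array of cluster C of that day. For genes higher with SKO at day 8 the count ran from 1 to 4, and was 1 without the SKO array of blank virus or the no SKO array of cluster C or blank virus of that day.

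**Figure D1:**
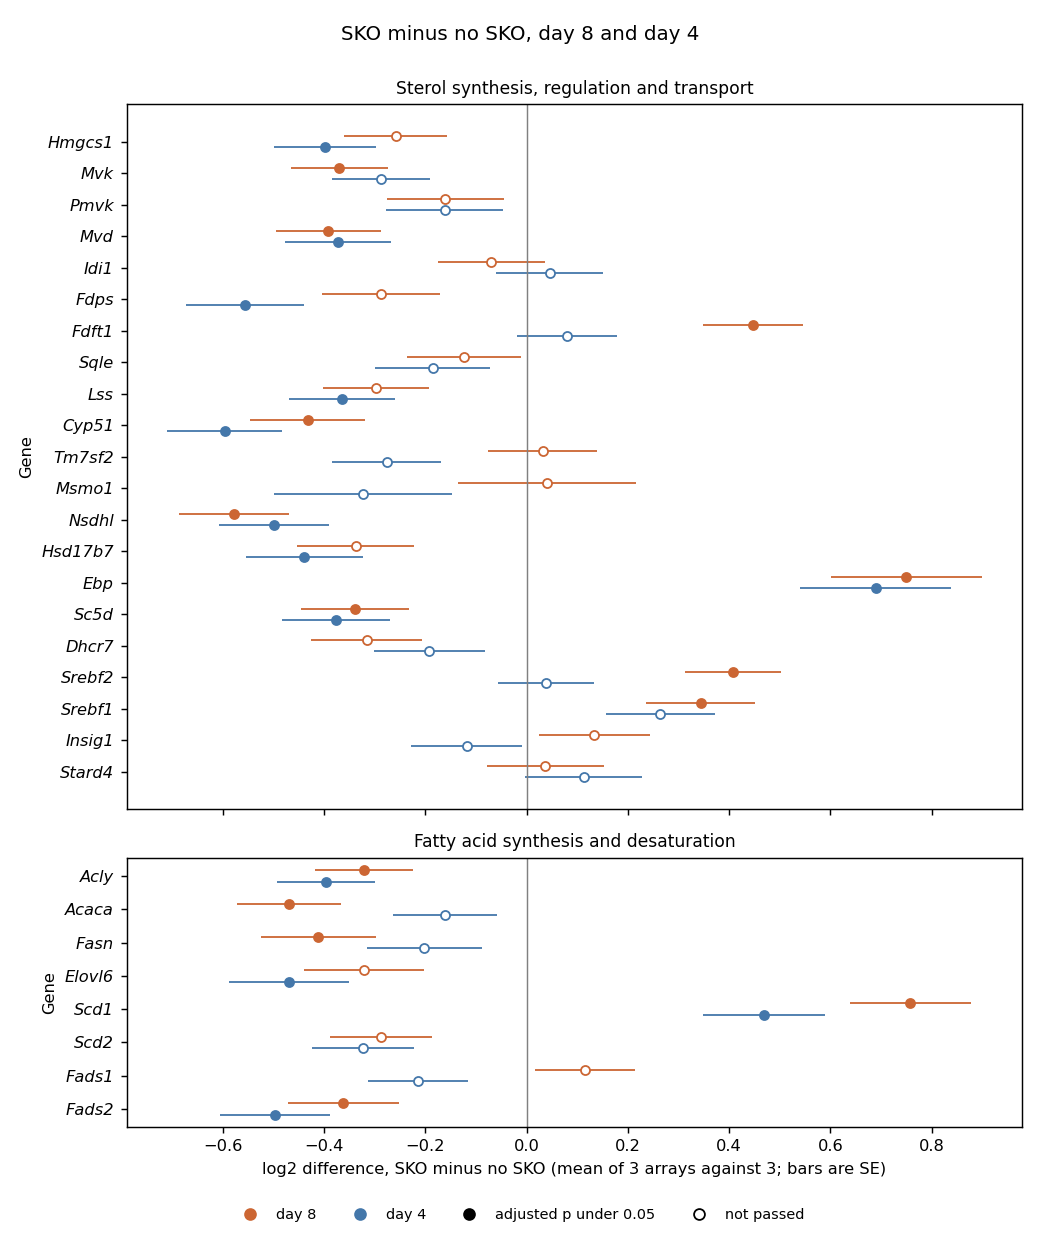
Log2 difference of SKO minus no SKO for 21 sterol genes (upper panel) and 8 fatty acid genes (lower panel), at day 8 (orange) and day 4 (blue). Each point is the mean of 3 arrays against 3, bars are SE, and filled points passed at an adjusted p under 0.05. Most points lie left of 0, while only Ebp and Scd1 have filled points to the right on both days. Fdft1, Srebf2, Srebf1 and Stard4 also lie to the right on both days.

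In the steps from acetyl-CoA to farnesyl diphosphate, 2 of 6 genes were lower with SKO at day 8 and 3 of 6 at day 4, with none higher. Mvd, the decarboxylase that makes isopentenyl diphosphate, read 6.84, 6.92 and 6.93 with SKO at day 8, against 7.36, 7.18 and 7.31 without SKO. At day 4 Mvd read 6.98, 6.84 and 6.78 with SKO, against 7.23, 7.26 and 7.23 without. The SKO arrays were below all arrays without SKO on each day, with a difference of -0.39 (SE 0.10, limma adjusted p = 0.0233) at day 8 and -0.37 (SE 0.10, limma adjusted p = 0.036) at day 4. Mvk, the mevalonate kinase, differed by -0.37 at day 8 (limma adjusted p = 0.0208), and its day 4 difference of -0.29 missed the threshold (limma adjusted p = 0.071). The Mvd call was lost without any of 5 arrays at day 8 and any of 9 at day 4, and the Mvk call without any of 5, the highest adjusted p being 0.139 without the SKO array of cluster C at day 8, 0.196 without the SKO array of blank virus at day 4 and 0.118 without the SKO array of blank virus at day 8.

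Hmgcs1, the synthase that makes HMG-CoA at the entry to the pathway, read 8.79, 8.77 and 8.96 with SKO at day 8, against 9.21, 8.99 and 9.08 without SKO. Its day 4 values were 8.58, 8.38 and 8.47 with SKO, against 8.94, 8.86 and 8.83 without. The arms did not overlap on either day, and the difference missed the threshold at day 8 (-0.26, SE 0.10, limma adjusted p = 0.0946) and passed at day 4 (-0.40, SE 0.10, limma adjusted p = 0.0243). Fdps, which makes farnesyl diphosphate, had -0.29 at day 8, where it missed the threshold (limma adjusted p = 0.102), and -0.56 at day 4, where it passed (limma adjusted p = 0.00962). The remaining members of this stretch, the kinase Pmvk and the isomerase Idi1, had differences between -0.16 and 0.05 over both days and passed on neither. Among the day 4 calls, that of Hmgcs1 was lost without any of 5 arrays and that of Fdps without any of 3, with an adjusted p of up to 0.155 without the SKO array of blank virus at day 4 for Hmgcs1 and 0.0759 without the no SKO array of cluster C at day 4 for Fdps.

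Between farnesyl diphosphate and lanosterol the 3 enzymes did not differ in a common direction. Fdft1, the squalene synthase, read 8.96, 9.09 and 9.17 with SKO at day 8, against 8.69, 8.60 and 8.58 without SKO. The day 4 arrays read 8.74, 8.97 and 8.97 with SKO, against 8.98, 8.66 and 8.81 without. All SKO arrays were above all others at day 8, a difference of 0.45 (SE 0.10, limma adjusted p = 0.00955), whereas the arms overlapped at day 4 (0.08, limma adjusted p = 0.653). A dimmer probe set of Fdft1 gave 0.30 at day 8 and did not pass there (limma adjusted p = 0.123).

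Sqle, the squalene epoxidase, is often taken as a rate-limiting enzyme of the later pathway. It read 7.97, 7.87 and 8.23 with SKO at day 8, against 8.26, 8.19 and 7.98 without SKO, and 7.87, 8.15 and 8.19 with SKO at day 4, against 8.33, 8.19 and 8.24 without. The arms overlapped at day 8, and neither day's difference passed (-0.12, limma adjusted p = 0.453, at day 8 and -0.19, limma adjusted p = 0.319, at day 4). Lss, which closes the rings to lanosterol, had -0.30 at day 8 (limma adjusted p = 0.0672) and -0.36 at day 4 (limma adjusted p = 0.04), so it passed at day 4 only. That call was lost without any of 9 arrays, and the day 8 call of Fdft1 without any of 4, with an adjusted p of up to 0.188 without the no SKO array of cluster B at day 4 for Lss and 0.0682 without the no SKO array of cluster C at day 8 for Fdft1.

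The 8 enzymes from lanosterol to cholesterol held the largest sterol differences in each direction. Cyp51, the lanosterol demethylase, read 7.34, 7.48 and 7.70 with SKO at day 8, against 7.97, 7.90 and 7.94 without SKO. At day 4 it read 7.40, 7.60 and 7.39 with SKO, against 7.99, 8.05 and 8.14 without. None of the SKO arrays reached the lowest array without SKO on either day, and the differences were -0.43 (SE 0.11, limma adjusted p = 0.0218) at day 8 and -0.60 (SE 0.11, 1.51-fold lower, limma adjusted p = 0.00607) at day 4. The highest adjusted p on leaving out 1 array was 0.117 without the no SKO array of cluster C at day 8 for the day 8 difference and 0.0525 without the SKO array of blank virus at day 4 for the day 4 one.

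Nsdhl, a dehydrogenase that takes part in removing the methyl groups of lanosterol, read 6.36, 6.71 and 6.44 with SKO at day 8, against 7.05, 7.22 and 6.97 without SKO. Its day 4 values were 6.82, 7.14 and 7.19 with SKO, against 7.60, 7.55 and 7.50 without. The arms did not overlap on either day. The difference was -0.58 (SE 0.11, 1.49-fold lower, limma adjusted p = 0.00421) at day 8, which passed without each array in turn, and -0.50 (SE 0.11, limma adjusted p = 0.0118) at day 4, where the highest adjusted p was 0.0867 without the SKO array of cluster B at day 4.

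Ebp, the sterol isomerase that acts after the demethylation steps, went the other way. It read 7.68, 7.77 and 7.43 with SKO at day 8, against 7.06, 6.61 and 6.96 without SKO, and 7.24, 7.49 and 7.25 with SKO at day 4, against 6.47, 6.83 and 6.61 without. Every SKO array was above every array without SKO on each day. The difference was 0.75 (SE 0.15, 1.68-fold higher, limma adjusted p = 0.00563) at day 8, which passed without each array in turn, and 0.69 (SE 0.15, 1.61-fold higher, limma adjusted p = 0.0113) at day 4, where the highest adjusted p was 0.0855 without the no SKO array of cluster C at day 4. In GRCm38.p6 both Ebp and Nsdhl lie on chromosome X, at chrX:8185329-8193512 and chrX:72918521-72958528 in the annotation. Any part of their location in these differences was not tested.

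Of the other 5 enzymes of this stretch, Sc5d, a sterol desaturase, was lower with SKO on both days, with differences of -0.34 at day 8 (limma adjusted p = 0.0457) and -0.38 at day 4 (limma adjusted p = 0.0382). Its call was lost on leaving out any of 11 arrays at day 8 and any of 10 at day 4, with the highest adjusted p being 0.244 without the SKO array of cluster C at day 8 and 0.216 without the SKO array of blank virus at day 4. Hsd17b7, which reduces the keto group left by Nsdhl, missed the threshold at day 8 (-0.34, limma adjusted p = 0.0616) and was lower with SKO at day 4 (-0.44, limma adjusted p = 0.0283), with an adjusted p at day 4 of up to 0.169 without the no SKO array of cluster B at day 4. Dhcr7, the reductase of the closing step, had -0.32 and -0.19 and passed on neither day (limma adjusted p = 0.0641 at day 8 and 0.284 at day 4). Tm7sf2, a sterol reductase, and Msmo1, a methylsterol oxidase, had 0.03 and 0.04 at day 8 and -0.28 and -0.32 at day 4, none of which passed. Msmo1 had the widest SE of the members in these comparisons, 0.18.

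Promoters of the members were read for letters bound by factors that act on these genes in textbook accounts. RefSeq windows of GRCm38.p6, from 250 bases before to 50 bases after the start of a gene, were found for 22 of the 29 measured members, 17 sterol and 5 fatty acid genes, 3 of them with several windows. CCAAT, the letters of the box bound by NF-Y, was found on either strand in 19 of the 22 genes, counting any window of a gene, against 41.1% of all 27025 genes counted the same way. GGGCGG, the GC box bound by Sp1, was found in 18, against 38.2% of all genes. CACGTG, an E-box, was found in Dhcr7, Hsd17b7, Insig1 and Sc5d, against 8.09%, and the sterol regulatory element TCACNCCAC in Hmgcs1, against 1.44%. The looser form TCANNCCAC, which includes every TCACNCCAC match, was found in Acly and Hmgcs1, against 4.78%. A match is a description of letters and not a bound site.

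Shown are the windows of the sterol enzymes with the largest falls with SKO at day 8 and day 4 (Nsdhl and Cyp51), of the one with the largest rise (Ebp), and of Hmgcs1, the member with the sterol regulatory element. Capitals mark CCAAT on either strand, which reads ATTGG on the opposite one, and in Hmgcs1 also the sterol regulatory element. Each is written 5′ to 3′ on the strand of the gene.
Cyp51, chr5:4104648-4104947, minus strand: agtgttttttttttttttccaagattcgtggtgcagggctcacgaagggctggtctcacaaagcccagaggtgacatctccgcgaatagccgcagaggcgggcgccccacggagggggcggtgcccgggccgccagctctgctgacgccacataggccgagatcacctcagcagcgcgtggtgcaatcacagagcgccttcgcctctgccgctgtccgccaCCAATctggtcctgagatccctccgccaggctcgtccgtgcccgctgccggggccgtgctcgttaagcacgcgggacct
Nsdhl, chrX:72918271-72918570, plus strand: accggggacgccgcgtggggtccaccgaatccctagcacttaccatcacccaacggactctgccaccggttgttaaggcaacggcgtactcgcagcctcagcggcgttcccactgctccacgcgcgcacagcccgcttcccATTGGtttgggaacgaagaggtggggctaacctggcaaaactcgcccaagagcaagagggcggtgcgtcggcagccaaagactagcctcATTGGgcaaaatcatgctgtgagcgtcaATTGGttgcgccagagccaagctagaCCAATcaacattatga
Ebp, chrX:8193463-8193762, minus strand: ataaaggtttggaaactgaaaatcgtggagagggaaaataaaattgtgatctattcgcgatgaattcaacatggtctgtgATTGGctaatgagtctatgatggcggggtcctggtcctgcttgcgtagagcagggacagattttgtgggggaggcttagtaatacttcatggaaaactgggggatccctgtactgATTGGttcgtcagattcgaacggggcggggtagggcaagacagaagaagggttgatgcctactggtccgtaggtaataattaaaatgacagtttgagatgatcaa
Hmgcs1, chr13:119690101-119690400, plus strand: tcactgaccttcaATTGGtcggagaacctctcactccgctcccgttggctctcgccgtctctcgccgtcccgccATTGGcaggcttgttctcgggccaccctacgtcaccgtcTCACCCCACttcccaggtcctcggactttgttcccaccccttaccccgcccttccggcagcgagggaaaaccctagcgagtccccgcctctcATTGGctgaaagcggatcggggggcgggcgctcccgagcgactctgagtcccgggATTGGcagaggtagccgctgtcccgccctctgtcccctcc
CCAAT stood 1 time in the Cyp51 window, 4 times in that of Nsdhl, 2 times in that of Ebp and 4 times in that of Hmgcs1. Nsdhl and Ebp both held CCAAT, as did all 17 sterol genes with a window, and neither held TCACNCCAC. What part these letters have in the SKO differences was not tested. GC content was 64.7% in the Cyp51 window, 59.3% in that of Nsdhl, 45.3% in that of Ebp and 65.7% in that of Hmgcs1.

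The 4 genes of sterol regulation and transport were not among those that were lower with SKO. Srebf2, whose product drives mostly sterol genes, read 8.24, 8.38 and 8.35 with SKO at day 8, against 7.93, 7.92 and 7.89 without SKO. The day 4 arrays read 8.25, 8.23 and 8.22 with SKO, against 8.20, 8.20 and 8.18 without. The SKO arrays lay above the others at day 8, with a difference of 0.41 (SE 0.09, limma adjusted p = 0.0122), while at day 4 the SKO arrays lay above the others by only 0.04 (limma adjusted p = 0.834). The highest adjusted p at day 8 on leaving out 1 array was 0.0806 without the SKO array of blank virus at day 8.

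Srebf1, whose product drives mostly fatty acid genes, read 6.98, 7.29 and 7.08 with SKO at day 8, against 6.66, 6.73 and 6.93 without SKO. At day 4 it read 7.06, 7.11 and 7.15 with SKO, against 6.73, 6.94 and 6.85 without. SKO arrays were above the others on each day. The difference passed at day 8 (0.34, SE 0.11, limma adjusted p = 0.0448), missed the threshold at day 4 (0.26, limma adjusted p = 0.133), and at day 8 was lost under quantile normalization and without any of 9 arrays, with an adjusted p of up to 0.194 without the SKO array of cluster B at day 8. A probe set of this gene does not separate the transcripts for its isoforms. Stard4, a sterol carrier, had 0.04 at day 8 and 0.11 at day 4, and Insig1 had 0.13 and -0.12. Neither passed on either day.

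**Figure D2:**
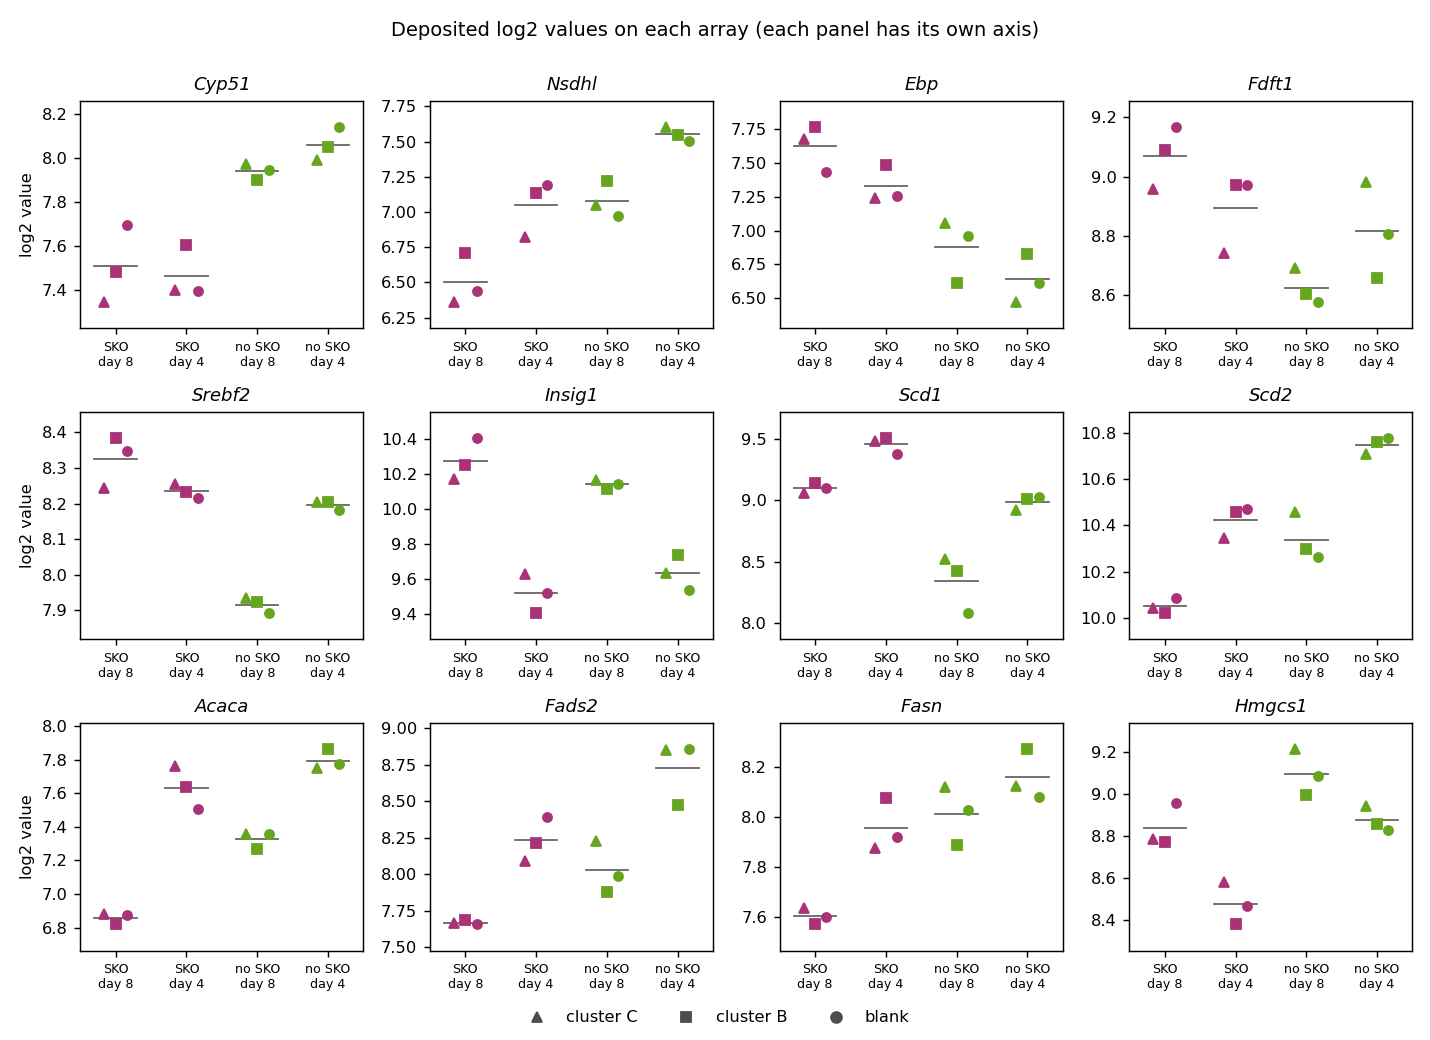
Deposited log2 values of 12 members on each of the 12 arrays, SKO (purple) to the left of no SKO (green) and day 8 to the left of day 4, with grey lines at the mean of 3 arrays and each panel on its own axis. Triangles are cluster C, squares cluster B and circles blank virus. Ebp and Scd1 sit higher with SKO on each day, Cyp51 and Nsdhl lower, and Insig1 sits higher at day 8 in both arms.

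Among the fatty acid enzymes, Acly and Fads2 were lower and Scd1 was higher with SKO on both days. At day 8, 4 of 8 were lower (Acaca by its brighter probe set, Fasn, Fads2 and Acly) and Scd1 was higher. At day 4, 3 of 8 were lower (Fads2, Elovl6 and Acly) and Scd1 was higher. Over all genes 12.7% were lower and 13.4% higher at day 8, and 9.4% lower and 9.52% higher at day 4. Among the 7623 brighter genes 15.4% were lower and 20.1% higher at day 8, and 13.9% lower and 14.7% higher at day 4. The median difference of the 8 fatty acid genes was -0.32 at day 8 and -0.27 at day 4. All SKO arrays lay below all arrays without SKO for 6 of 8 genes at day 8 and for 5 of 8 at day 4, 75% and 62.5% of them, against 24.2% and 17.9% of all genes. They lay above for 1 of 8 on each day (12.5%), against 20.7% and 15.8% of all genes. Overlap was not counted among the 7623 brighter genes. The number lower ran from 0 to 4 at day 8 and from 0 to 3 at day 4 over the 12 left-out arrays. It was 0 at day 8 without the cluster C array of that day with or without SKO. It was 0 at day 4 without the SKO array of cluster C or cluster B or the no SKO array of blank virus of that day.

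The 3 enzymes from citrate to palmitate were all lower with SKO at day 8, for Acaca by its brighter probe set only. Acly, which releases acetyl-CoA from citrate in the cytosol, was lower on both days, with differences of -0.32 at day 8 (SE 0.10, limma adjusted p = 0.0384) and -0.40 at day 4 (SE 0.10, limma adjusted p = 0.0202). Leaving out 1 array raised the adjusted p to at most 0.194 without the SKO array of blank virus at day 8 for day 8 and 0.1 without the SKO array of cluster C at day 4 for day 4. Fasn, the fatty acid synthase, read 7.63, 7.57 and 7.60 with SKO at day 8, against 8.12, 7.89 and 8.03 without SKO. Its day 4 values were 7.88, 8.08 and 7.92 with SKO, against 8.12, 8.27 and 8.08 without. SKO arrays lay below the others at day 8, with a difference of -0.41 (SE 0.11, limma adjusted p = 0.0275), and at day 4 lay just below them without overlap, where the difference of -0.20 did not pass (limma adjusted p = 0.279).

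Acaca, the carboxylase that makes malonyl-CoA and sets the pace of fatty acid synthesis, read 6.88, 6.82 and 6.88 with SKO at day 8, against 7.36, 7.27 and 7.35 without SKO. The day 4 arrays read 7.76, 7.63 and 7.51 with SKO, against 7.75, 7.86 and 7.77 without. The SKO arrays lay below the others at day 8, with a difference of -0.47 (SE 0.10, limma adjusted p = 0.00922), and overlapped at day 4 (-0.16, limma adjusted p = 0.341). Leaving out 1 array raised the adjusted p at day 8 to at most 0.0621 without the no SKO array of cluster C at day 8 for Acaca and 0.148 without the no SKO array of cluster C at day 8 for Fasn. These values come from the brighter of 2 probe sets annotated to Acaca. The identifiers nearest to that probe set belong to genes of chromosome 12, for 18 of 20 neighbours, whereas Acaca lies on chromosome 11 in GRCm38.p6. The dimmer probe set has neighbours on chromosome 11, for 19 of 20, had a mean of 5.80, and gave -0.26 at day 8 and -0.16 at day 4, neither of which passed. Likewise the Idi1 probe set used here has neighbours on chromosome 2, for 19 of 20, and the gene is on chromosome 13, and its other probe set gave 0.03 at day 8 and 0.07 at day 4. Which probe sets read these genes was not tested.

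Elongation and desaturation gave 1 gene higher and the rest lower or not passed. Scd1, the stearoyl-CoA desaturase that makes monounsaturated fatty acids, read 9.06, 9.14 and 9.10 with SKO at day 8, against 8.52, 8.42 and 8.08 without SKO. At day 4 it read 9.48, 9.51 and 9.38 with SKO, against 8.92, 9.01 and 9.02 without. Every SKO array was above every array without SKO of the same day. The difference was 0.76 (SE 0.12, 1.69-fold higher, limma adjusted p = 0.00161) at day 8, which passed without each array in turn, and 0.47 (SE 0.12, limma adjusted p = 0.0248) at day 4, with an adjusted p of up to 0.164 without the no SKO array of cluster C at day 4.

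Scd2, the paralogue with the same reaction, did not follow Scd1. It read 10.04, 10.02 and 10.09 with SKO at day 8, against 10.46, 10.30 and 10.26 without SKO, and 10.35, 10.46 and 10.47 with SKO at day 4, against 10.71, 10.76 and 10.78 without. All SKO arrays were below all others on each day, and both differences missed the threshold (-0.29, limma adjusted p = 0.0657, at day 8 and -0.32, limma adjusted p = 0.0545, at day 4). Whether the change of Scd1 differs from that of Scd2 was not tested.

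Fads2, a desaturase of polyunsaturated fatty acids, read 7.66, 7.68 and 7.66 with SKO at day 8, against 8.23, 7.88 and 7.98 without SKO. Its day 4 values were 8.09, 8.21 and 8.39 with SKO, against 8.85, 8.48 and 8.86 without. SKO arrays were the lower ones on each day without overlap, with differences of -0.36 (SE 0.11, limma adjusted p = 0.0381) at day 8 and -0.50 (SE 0.11, limma adjusted p = 0.0121) at day 4. The highest adjusted p on leaving out 1 array was 0.225 without the SKO array of blank virus at day 8 and 0.0767 without the no SKO array of blank virus at day 4. The day 8 call was also lost under the additive fit and with virus left out of the model. Fads1, the next desaturase of that route, had 0.11 at day 8 and -0.22 at day 4 and passed on neither day. Elovl6, which lengthens palmitate, missed the threshold at day 8 (-0.32, limma adjusted p = 0.0786) and was lower with SKO at day 4 (-0.47, SE 0.12, limma adjusted p = 0.0236), with an adjusted p at day 4 of up to 0.128 without the no SKO array of blank virus at day 4.

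Markers of cell types and genes of proliferation differed between the arms beside these genes. The mean log2 level of 10 fibroblast markers lay between 9.17 and 9.40 with SKO at day 8 and between 10.41 and 10.48 without SKO, and 8 of the 10 were lower. The 14 proliferation genes measured, of 15, had a mean level between 7.74 and 8.18 with SKO at day 8 and between 7.45 and 7.55 without, and 8 of the 14 were higher. At day 4 those levels were 8.42 to 8.56 with SKO and 7.51 to 7.63 without, and all 14 were higher. The 8 epithelial markers lay between 5.77 and 6.81 with SKO at day 8, against 4.50 to 4.76 without, and all 8 were higher.

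Levels of 10 pluripotent cell markers were 4.79 to 6.68 with SKO at day 8, against 4.19 to 4.28 without, and 4 of 10 were higher. The highest of these levels, 6.68, was that of the array with cluster C. Over all genes 13.4% were higher and 12.7% lower with SKO at day 8. Markers of lipid-storing and lipid-handling cells moved as well. Of 9 adipocyte markers measured, of 10, 5 were lower with SKO at day 8, with mean levels of 4.25 to 4.38 against 4.86 to 4.98 without SKO, and all 8 macrophage markers were lower, with 4.65 to 4.91 against 5.47 to 5.69. The adipocyte levels were low, and 2 of the 9 markers were under the lower quartile on all arrays. None of 7 hepatocyte markers measured, of 8, passed on either day, and their mean levels lay between 3.64 and 3.84 on all arrays, near the lower quartiles of 3.48 to 3.68. What part these cells have in the lipid gene differences was not tested. In bulk samples fewer cells of a type and less RNA per cell cannot be told apart.

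**Figure D3:**
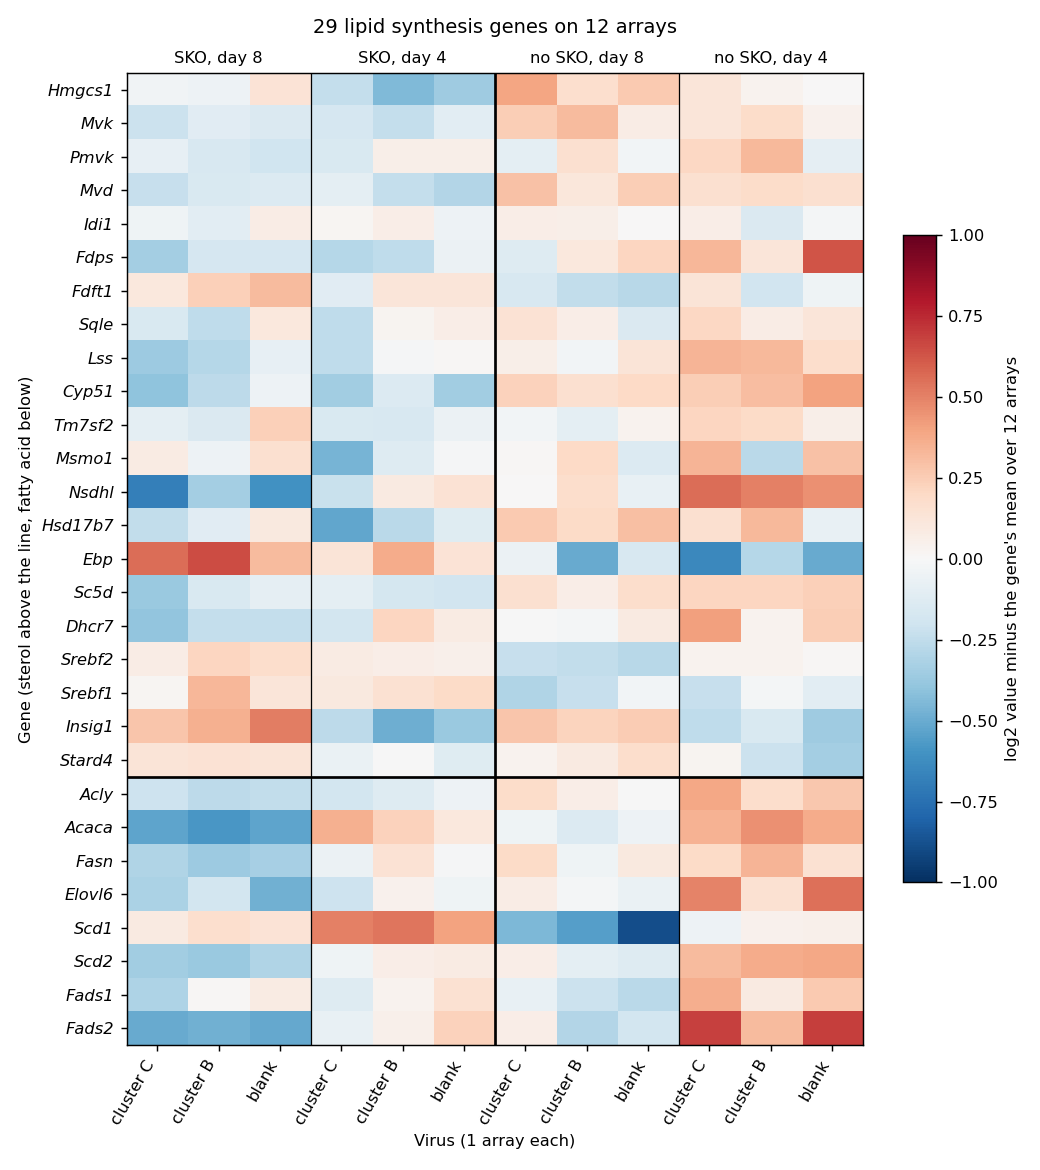
Log2 value of each of 29 genes on each of 12 arrays, minus the mean of that gene over the 12 arrays (red above, blue below), with SKO columns left of no SKO columns and day 8 left of day 4. Sterol genes stand above the black line and fatty acid genes below it. All 8 fatty acid genes average lower at day 8 than at day 4 in both arms, as do 8 of 21 sterol genes with SKO and 13 of 21 without.

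Day 8 minus day 4 was below 0 for every fatty acid gene in both arms, while sterol genes lay on either side of 0. With SKO, all 8 fatty acid genes had a difference of day 8 minus day 4 below 0, with a median of -0.35, and Acaca and Fads2 were lower past the threshold. Without SKO, all 8 were again below 0, with a median of -0.42, and 5 were lower past the threshold (Fads2, Scd1, Acaca, Fads1 and Scd2). The median over all genes was -0.01 with SKO and 0.01 without. Of all genes 3.66% were lower and 5.24% higher with SKO, and 4.63% were lower and 4.05% higher without. In the closer background of 7623 brighter genes 6.83% were lower and 6.17% higher with SKO, and 8.84% lower and 5.44% higher without. The medians of that set were -0.01 with SKO and -0.05 without. In each arm the day 8 arrays all lay below the day 4 arrays for 6 of the 8, 75%, against 14% of all genes with SKO and 15.8% without. They all lay above for 0 of 8, against 14.2% of all genes with SKO and 14.3% without. Overlap was not counted among the 7623 brighter genes.

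The 21 sterol genes had a median day difference of 0.03 with SKO, where 13 were above 0, and of -0.10 without SKO, where 8 were above 0. The median with SKO was -0.0043 with equal array medians. All day 8 arrays lay below all day 4 arrays for 2 of 21 with SKO (9.52%) and for 6 of 21 without (28.6%), against 14% and 15.8% of all genes. They lay above for 3 of 21 in each arm (14.3%), against 14.2% and 14.3% of all genes. Whether sterol and fatty acid genes differ in their day change was not tested. In each arm 1 of the 21 was higher at day 8, Insig1, and 1 was lower, Nsdhl. These counts of calls are near the background shares. With SKO, Nsdhl missed the threshold on leaving out any of 6 arrays and Fads2 on leaving out any of 4, with an adjusted p of up to 0.123 without the SKO array of blank virus at day 4 for Nsdhl and 0.11 without the SKO array of blank virus at day 4 for Fads2. Without SKO, leaving out 1 array left between 0 and 4 fatty acid genes lower, with 0 without the blank virus array of either day. The Scd2 call was lost without any 1 of the 12 arrays. Without 1 array the adjusted p reached 0.0523 without the no SKO array of blank virus at day 4 for Fads2, 0.0839 without the no SKO array of blank virus at day 4 for Scd1, 0.123 without the no SKO array of cluster B at day 8 for Acaca, 0.156 without the no SKO array of blank virus at day 8 for Fads1 and 0.153 without the no SKO array of cluster C at day 8 for Nsdhl.

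Insig1, the retention protein that is itself a target of sterol regulation, was the member with the largest rise at day 8 over day 4. Its day 8 arrays read 10.17, 10.25 and 10.41 with SKO, against 9.63, 9.41 and 9.52 at day 4 with SKO. Without SKO they read 10.17, 10.11 and 10.14 at day 8, against 9.64, 9.74 and 9.54 at day 4. The days did not overlap in either arm. The rise was 0.76 with SKO (SE 0.11, 1.69-fold, limma adjusted p = 0.00379), which passed without each array in turn, and 0.51 without SKO (SE 0.11, limma adjusted p = 0.0247), where the highest adjusted p was 0.128 without the no SKO array of blank virus at day 4.

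Hmgcs1, with a sterol regulatory element in its promoter, had a day difference of 0.36 with SKO and 0.22 without, and missed the threshold in each arm (limma adjusted p = 0.0602 with SKO and 0.219 without). Its day 8 arrays lay above its day 4 arrays in each arm. The sterol regulators other than Insig1 had smaller day differences than Insig1. Srebf2 had 0.09 with SKO and -0.28 without, and Srebf1 had 0.01 and -0.07. Without SKO the day 8 arrays of Srebf2 (7.89 to 7.93) all lay below its day 4 arrays (8.18 to 8.20), while with SKO the days overlapped. Stard4 had 0.20 with SKO and 0.27 without, with its day 8 arrays above its day 4 arrays in each arm. None of these differences passed. Nsdhl was lower at day 8 in both arms, with differences of -0.55 with SKO (SE 0.11, limma adjusted p = 0.0161) and -0.47 without (SE 0.11, limma adjusted p = 0.0322).

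**Figure D4:**
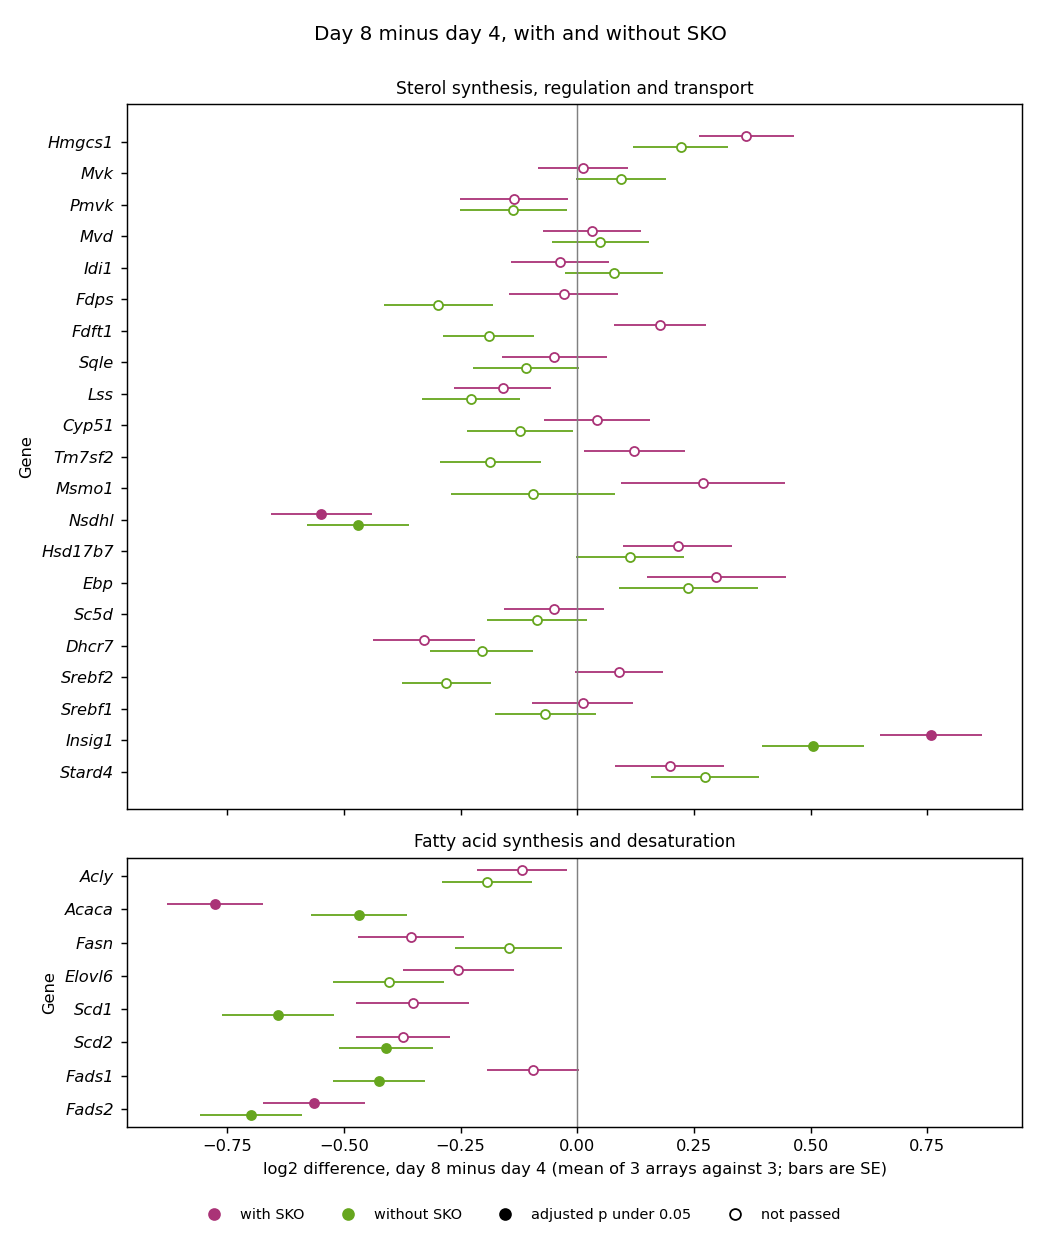
Log2 difference of day 8 minus day 4 for the 21 sterol genes (upper panel) and 8 fatty acid genes (lower panel), with SKO (purple) and without SKO (green). Each point is the mean of 3 arrays against 3, bars are SE, and filled points passed at an adjusted p under 0.05. All 16 points of the fatty acid panel lie left of 0, and Insig1 is the sterol gene farthest to the right in both arms.

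Among the fatty acid genes, Acaca had the largest fall with SKO, -0.78 (SE 0.10, 1.71-fold lower, limma adjusted p = 0.00249), and was lower without SKO as well, -0.47 (SE 0.10, limma adjusted p = 0.0257). The dimmer Acaca probe set gave -0.46 with SKO and -0.37 without and passed in neither arm. Fads2 differed by -0.56 with SKO (SE 0.11, limma adjusted p = 0.0144) and -0.70 without (SE 0.11, 1.62-fold lower, limma adjusted p = 0.00696). All its day 8 arrays were below all its day 4 arrays in each arm. Scd1 had -0.35 with SKO, which missed the threshold (limma adjusted p = 0.11), and -0.64 without SKO, which passed (SE 0.12, limma adjusted p = 0.0144).

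Scd2 had -0.37 with SKO (limma adjusted p = 0.0529) and -0.41 without (limma adjusted p = 0.039). Fads1 had -0.10 with SKO (limma adjusted p = 0.648) and -0.43 without (limma adjusted p = 0.0325). The day differences of Fasn, Elovl6 and Acly passed in neither arm, and were -0.36, -0.26 and -0.12 with SKO and -0.15, -0.40 and -0.19 without. Beside these genes, the mean level of 14 proliferation genes was 7.74 to 8.18 at day 8 and 8.42 to 8.56 at day 4 with SKO, and 7.45 to 7.55 at day 8 and 7.51 to 7.63 at day 4 without SKO. Of the 14, 9 were lower at day 8 with SKO and 1 without. Adipocyte markers without SKO had mean levels of 4.86 to 4.98 at day 8 and 4.40 to 4.45 at day 4, and 4 of 9 were higher. In cells with SKO, 8 of 8 epithelial markers were higher at day 8 than at day 4 (median difference 1.29). So were 4 of 10 pluripotent cell markers (median 0.90), 1 of 9 adipocyte and 1 of 10 fibroblast markers with SKO. Without SKO, 3 of 8 macrophage markers and 3 of 10 fibroblast markers were higher at day 8. Their part in the lipid gene differences was not tested.

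Whether the day difference itself differed between the arms was tested as an interaction, which 2.97% of all genes passed. None of the 29 members passed in limma, and 3 had an unadjusted p under 0.05. These were Srebf2 (0.37, SE 0.13, limma adjusted p = 0.196), Fdft1 (0.37, SE 0.14, limma adjusted p = 0.214) and Fads1 (0.33, SE 0.14, limma adjusted p = 0.267), each as the day difference with SKO minus that without. For the brighter Fdft1 probe set the day 8 array was above the day 4 array at all 3 viruses with SKO and below it at all 3 without SKO. Its dimmer probe set did not keep this pattern. From day 4 to day 8 it fell with SKO and cluster C (8.14 to 7.90) and rose without SKO with cluster B (7.79 to 7.87). With a trended, robust variance prior 1 sterol gene passed. The 2 fatty acid genes lower at day 8 with SKO and the 5 without SKO are therefore not shown to be a difference between the arms.

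The microRNA clusters moved no member past the threshold. With SKO, 0 of 29 members passed for cluster C against blank virus (0.0201% of all genes did), for cluster B against blank virus (0.01%) and for cluster C against cluster B (0.0201%). Without SKO, 0 of 29 passed in the same 3 comparisons, nor did any gene at all (0%), while 941, 1169 and 1260 of all genes had an unadjusted p under 0.05 for cluster C against blank virus, cluster B against blank virus and cluster C against cluster B. The cluster effects with SKO minus those without SKO also passed for 0 of 29 members and for 0% of all genes, for cluster C as for cluster B, with 1155 and 1036 of all genes at an unadjusted p under 0.05. Cells with SKO had 2 members at an unadjusted limma p under 0.05 for cluster C against blank virus, and 0 for cluster B, where 1359 and 614 of all genes reached it. Each of these comparisons sets 2 arrays against 2, 1 per day, so an effect seen on a single day adds to the error.

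Those with an unadjusted p under 0.05 were few. Hsd17b7 with SKO and cluster C, against SKO and blank virus, differed by -0.34 at day 8 and -0.39 at day 4 (mean -0.37, SE 0.14, limma adjusted p = 0.704). Fads1 differed by -0.39 at day 8 and -0.28 at day 4 (mean -0.33, SE 0.12, limma adjusted p = 0.687). In the arm without SKO, cluster C minus blank virus was -0.04 and 0.23 for Hsd17b7 and 0.20 and 0.10 for Fads1 at day 8 and day 4. The difference between the arms had an unadjusted p under 0.05 for Sqle (-0.47), Hsd17b7 (-0.46) and Fads1 (-0.48), with limma adjusted p of 0.833, 0.853 and 0.824. Nsdhl in cluster C against cluster B with SKO (-0.33, limma adjusted p = 0.876) and Fads2 in cluster C against cluster B without SKO (0.36, limma adjusted p = 0.761) make up the rest.

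**Figure D5:**
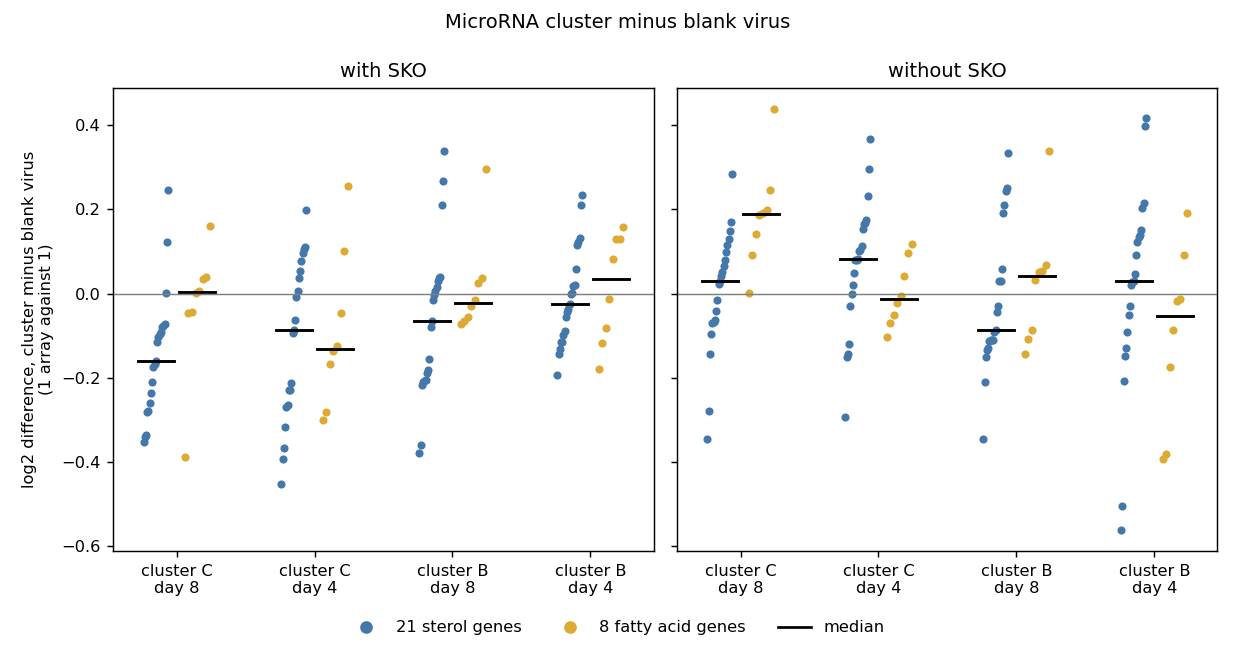
Log2 difference of a cluster minus blank virus, 1 array against 1, for the 21 sterol genes (blue) and 8 fatty acid genes (yellow), with SKO (left panel) and without SKO (right panel), by cluster and day. Black lines are medians. With SKO and cluster C the sterol medians are -0.16 at day 8 and -0.09 at day 4, and no member passed in any cluster comparison.

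Taken over the 21 sterol genes, cluster C minus blank virus with SKO had a median of -0.10, and 18 of 21 genes were below 0. The median was -0.16 at day 8, with 18 of 21 below 0, and -0.09 at day 4, with 13 of 21. Among all 19938 genes 10431 were below 0 in the mean of both days, 10707 at day 8 and 10043 at day 4. On both days 11 of 21 were below 0, which is 52.4%, against 28.9% of all genes. Among them were Sqle, Lss, Hsd17b7, Nsdhl, Dhcr7 and Msmo1. Both days share no array, but all 21 genes share the same 4 arrays, and no sterol gene passed, so this is a description. Without SKO the cluster C median was 0.06, with 5 of 21 below 0, and was -0.0055 without the blank virus array at day 4. Among all 19938 genes 10096 were below 0 there. For cluster B the sterol medians were -0.03 with SKO and -0.03 without, and that without SKO reached 0.03 without its cluster B array at day 8.

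The 8 fatty acid genes had medians of -0.03 for cluster C and -0.0019 for cluster B with SKO, and 0.09 and -0.0033 without. Both cluster B medians changed sign on leaving out 1 array, reaching 0.04 with SKO and 0.0057 without. At day 8 without SKO all 8 were above 0 for cluster C, with a median of 0.19, and at day 4 the median was -0.01 with 5 of 8 below 0. Among all 19938 genes 10205 were below 0 at day 8 and 9978 at day 4 there. With SKO, cluster C against blank virus also came with proliferation genes, of which 14 of 14 were above 0 with a median of 0.27, and with epithelial markers, of which 8 of 8 were above 0 with a median of 0.62. Of 10 pluripotent cell markers, 9 were above 0 with a median of 0.87, the largest of these medians. The 10 fibroblast markers were all below 0 with a median of -0.15. These differences are averaged over both days, and the days were not alike for some genes. With SKO, Dppa5a read 10.22 with cluster C and 6.61 with blank virus at day 8, but 3.30 and 3.53 at day 4. Mki67 read 8.10 and 7.66 at day 8, but 8.28 and 8.60 at day 4. Cdh1 was above blank virus on both days, with 7.19 and 6.34 at day 8 and 5.72 and 5.05 at day 4. None of the genes on these lists passed, and their part in the sterol values was not tested.

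Neighbouring pathways were read from lists that hold none of the members. Of 24 other sterol genes 17 were measured and the others were not analysed here. Of the 17, 3 were higher and 5 lower with SKO at day 8, and 2 higher and 7 lower at day 4. Over all genes 13.4% were higher and 12.7% lower at day 8, and 9.52% higher and 9.4% lower at day 4. Abca1, the transporter that exports cholesterol from the cell, read 8.81, 8.79 and 8.76 with SKO at day 8, against 6.90, 6.67 and 6.83 without SKO, and 9.54, 9.48 and 9.41 with SKO at day 4, against 7.37, 7.33 and 7.23 without. It was the largest difference among the other sterol genes, 1.98 (SE 0.10, limma adjusted p = 1.8e-06) at day 8 and 2.17 (SE 0.10, limma adjusted p = 2.24e-06) at day 4. Lbr, a nuclear membrane protein with the same sterol reductase activity as Tm7sf2, was higher by 0.71 at day 8 and 0.89 at day 4. Ch25h, which hydroxylates cholesterol, was lower at day 8, and so was Tmem97, with differences of -1.24 and -0.64. Mylip, a ubiquitin ligase, was lower at day 4, and so was Lipa, the lysosomal lipase, with differences of -0.93 and -0.84.

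Of 30 other genes of fatty acid and glyceride synthesis 28 were measured, with 6 higher and 6 lower with SKO at day 8, and 5 higher and 6 lower at day 4. The shares over all genes for these comparisons were 13.4% higher and 12.7% lower at day 8, and 9.52% higher and 9.4% lower at day 4. Elovl7, an elongase, was higher by 1.47 at day 8 and by 0.72 at day 4. Pnpla3, a lipid droplet protein, was higher by 1.28 at day 8. Fads3, a homologue of Fads1 and Fads2, differed by -0.77 at day 8 and -0.65 at day 4. Of 21 genes of fatty acid oxidation 20 were measured, with 1 higher and 2 lower with SKO at day 8, and 1 higher and 6 lower at day 4. Acadm, a dehydrogenase of that route, differed by -0.65 at day 4, and Slc25a20, the carnitine carrier of mitochondria, by 0.59 at day 8. Their medians were -0.01 at day 8 and -0.20 at day 4, beside -0.32 and -0.27 for the 8 fatty acid synthesis genes.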

How the data were processed

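Biotin-labelled RNA of 12 MEF cultures was hybridised to Affymetrix whole-transcript arrays, 1 array per condition. The deposited values are log2 values of 28853 probe sets, which the authors made with RMA and Partek, per the submitters' processing notes, with versions not given in the sources used here. RMA brings arrays to a common distribution and so hides a shift common to the whole transcriptome. GEO's annotation of the platform gives a single gene for 21789 probe sets, more than 1 for 1621 and no gene for 5443. Those with a single gene were kept, with the brightest probe set per gene, giving 19938 genes, of which 999 had several probe sets. The 29 symbols matched RefSeq of GRCm38.p6. No 2 arrays were copies, the smallest mean absolute difference being 0.167.

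Genes were tested in limma 3.58.1 (R 4.3.3) with 1 fit of 8 coefficients, letting day and virus effects each depend on SKO. It left 4 residual degrees of freedom, to which empirical Bayes added 4.94, with a median residual SD of 0.152. The labels do not say whether cultures were independent, so p-values measure the spread between these arrays alone. In total 13 comparisons were made, each adjusted over all genes, and the fit was tested on simulated data. All members are named, with every array's value for those with the largest SKO and day differences and for 8 chosen genes. Of the other lists, up to 2 highest and 2 lowest genes are named. Members and lists were chosen with earlier results of these data known. Motifs and figures were made with Python 3.11.15, pandas 2.3.3, numpy 2.4.6 and matplotlib 3.10.9. Alternatives are given in the closing section.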

Additional observations from a re-analysis of the deposited data

How the results depend on the processing

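None of the 38 calls of members turned its direction under the alternatives run or without 1 array, whereas 8 of the 26 class medians changed sign under at least 1 of them. These were the sterol median of day 8 against day 4 with SKO and 7 medians of cluster comparisons, such as the fatty acid median of cluster C against cluster B with SKO (-0.06, and 0.01 without the cluster C array at day 4). No paired analysis was possible because each condition had 1 array and replicate numbers pair nothing beyond virus, which the model holds. Of the 38 calls, 29 kept their side under the settings tried other than the 1.5-fold minimum and left-out arrays, and 5 kept it without each array in turn (Nsdhl, Ebp and Scd1 with SKO against no SKO at day 8, and Insig1 and Acaca at day 8 against day 4 with SKO). The others were lost under equal array medians (Sc5d and Acly, SKO at day 8), quantile normalization (Srebf1, SKO at day 8), the additive fit (Fads2, SKO at day 8, and Fads1, day without SKO), virus left out (Fads2, SKO at day 8) or the other probe sets (Fdft1 and Acaca, SKO at day 8, and Acaca, day in both arms). A fit without 1 array has fewer residual degrees of freedom. Counts below are of members past the threshold.

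With a minimum change of 1.5-fold, SKO against no SKO left 1 sterol gene higher, 0 sterol genes lower and 0 fatty acid genes lower at day 8, and 1 sterol gene lower, 0 fatty acid genes higher and 0 lower at day 4. Day 8 against day 4 then left 0 sterol genes lower and 1 fatty acid gene lower with SKO, and 0 sterol genes higher, 0 lower and 2 fatty acid genes lower without SKO. A trended, robust variance prior in limma gave 10 sterol genes lower for SKO at day 8 and 5 fatty acid genes lower at day 4. For day 8 against day 4 it gave 2 sterol genes higher, 2 lower and 5 fatty acid genes lower with SKO, 2 sterol genes lower without SKO, and 1 sterol gene in the interaction. Quantile normalization, and leaving out dim genes, each gave 8 sterol genes lower for SKO at day 8. Leaving out dim genes, the additive fit and leaving virus out each gave 2 sterol genes higher for day 8 against day 4 with SKO. Leaving virus out also gave 4 fatty acid genes lower with SKO and 2 sterol genes lower without. The other probe sets of Idi1, Fdft1 and Acaca, an alternative chosen after seeing the data, gave 1 fatty acid gene lower with SKO.

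Leaving out 1 array at a time gave, for SKO at day 8, 1 to 4 sterol genes higher, 1 to 5 lower and 0 to 4 fatty acid genes lower. For SKO at day 4 it gave 0 to 1 sterol genes higher, 1 to 7 lower, 0 to 1 fatty acid genes higher and 0 to 3 lower. For day 8 against day 4 it gave 0 to 1 sterol genes lower and 1 to 2 fatty acid genes lower with SKO, and 0 to 1 sterol genes higher, 0 to 1 lower and 0 to 4 fatty acid genes lower without SKO. Equal array medians and the mean over probe sets kept all these counts within 1.5 times. With 1 array per condition, differences of about 0.3 and less seldom passed, so a member that missed the threshold is not shown to be alike in both groups.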
